A study of Mus musculus with 17 samples.

Results

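Receptors for colony-stimulating factors, growth factors and cytokines were followed in mouse bone marrow progenitors and spleen myeloid cells. The 10 genes were Csf1r, Csf2ra, Csf2rb, Csf3r, Flt3, Kit, Met, Il6st, Il10ra and Ifngr1. They were taken by symbol, and each probe set that the platform annotation ties to exactly 1 of these symbols was kept. This gave 14 of the 45037 probe sets on the array. They measure 9 of the 10 genes, among 17097 genes in all that have a probe set of their own symbol. Csf2rb and Il6st had 3 probe sets each, Met had 2 and the other genes had 1. Csf2ra, the ligand-binding chain of the GM-CSF receptor, was not analysed here.

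Gene expression was read on 17 Affymetrix perfect-match arrays, each hybridised with RNA of 1 pool of flow-sorted cells from mice aged 6 to 10 weeks. Myelo-dendritic progenitors (MDPs) were sorted from bone marrow by the phenotype lineage-sca1-CD127-CD117+MCSFR+, in 4 groups. They were 2 VENUS-negative pools (titles IRF8_neg_MDP) and 3 VENUS-positive pools (titles IRF8_PAC_MDP) of reporter mice, 3 pools labelled Irf8 knockout (titles IRF8_ko_MDP) and 3 wild-type pools. The first 3 of these groups all carry the genotype label IRF8-deficient, and the labels do not say how the VENUS reporter relates to that deficiency. Wild-type spleen gave 3 pools of CD11c-CD11b+MCSFR+ macrophages and 3 pools of CD11c-CD11b+Ly6C+MCSFR- granulocytes. A pool of spleen cells, wild-type MDPs or knockout-labelled MDPs held cells of 5 mice, and the sources used here do not give the number of mice behind a VENUS pool. CD117 is the Kit protein and MCSFR is the Csf1r protein, so all MDP groups were gated on the surface proteins of 2 of the genes, and the spleen groups on 1 of them.

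A blood progenitor reads its surroundings through such receptors. Csf1r, Flt3, Kit and Met are receptor tyrosine kinases, which dimerise on binding M-CSF or IL-34, Flt3 ligand, stem cell factor and hepatocyte growth factor, in that order, and phosphorylate their own tails. Csf2rb, Csf3r and Il6st are class I cytokine receptors, and Il10ra and Ifngr1 are class II receptors, and these signal through associated Janus kinases and STAT proteins. In the marrow, Kit marks early progenitors, Flt3 supports the dendritic cell lineage, Csf1r the monocyte and macrophage lineage and Csf3r the neutrophil lineage.

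The promoters of 5 of the genes are shown because their levels carry the comparisons described further on. Il6st, Met and Flt3 were low together in VENUS-negative MDPs and granulocytes, Csf3r was highest in granulocytes, and Ifngr1 differed between knockout-labelled and wild-type MDPs. No promoter window was searched for Csf1r, Csf2rb or Il10ra. Each window runs from 250 bases before to 50 bases after the annotated start, 5′ to 3′ on the gene's strand, as RefSeq gives it on GRCm38.p6. Capitals mark matches to 5 short motifs searched on both strands. They were the composite element of ETS factors with IRF8 or IRF4 (GGAA, any 2 bases, GAAA) and a core of the interferon-stimulated response element (GAAA, any 2 bases, GAAA). The core that many ETS factors bind was searched as AGGAAG. The site of the haematopoietic Gata factors was searched as AGATAA. The GC box, an element of many promoters without a TATA box, was searched as GGGCGG, and the motifs can overlap.
Il6st, chr13:112463820-112464119, plus strand: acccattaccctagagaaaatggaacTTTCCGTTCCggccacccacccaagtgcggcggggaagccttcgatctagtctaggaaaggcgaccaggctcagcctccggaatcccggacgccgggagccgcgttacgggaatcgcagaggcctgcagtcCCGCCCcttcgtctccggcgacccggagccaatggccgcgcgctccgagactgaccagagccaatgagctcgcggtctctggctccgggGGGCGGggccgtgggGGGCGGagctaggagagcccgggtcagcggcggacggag
Met, chr6:17463707-17464006, plus strand: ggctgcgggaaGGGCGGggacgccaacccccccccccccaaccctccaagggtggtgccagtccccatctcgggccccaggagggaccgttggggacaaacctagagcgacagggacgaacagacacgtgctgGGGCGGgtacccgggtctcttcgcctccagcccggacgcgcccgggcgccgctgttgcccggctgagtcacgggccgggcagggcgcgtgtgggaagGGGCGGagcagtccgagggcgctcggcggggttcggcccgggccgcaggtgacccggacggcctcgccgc
Flt3, chr5:147400440-147400739, minus strand: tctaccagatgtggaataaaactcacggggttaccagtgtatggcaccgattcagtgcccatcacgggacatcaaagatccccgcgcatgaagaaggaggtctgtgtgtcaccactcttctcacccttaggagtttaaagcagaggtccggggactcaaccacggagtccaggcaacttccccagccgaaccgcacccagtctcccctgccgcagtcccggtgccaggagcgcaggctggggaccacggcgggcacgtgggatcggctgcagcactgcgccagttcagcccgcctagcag
Csf3r, chr4:126024409-126024708, plus strand: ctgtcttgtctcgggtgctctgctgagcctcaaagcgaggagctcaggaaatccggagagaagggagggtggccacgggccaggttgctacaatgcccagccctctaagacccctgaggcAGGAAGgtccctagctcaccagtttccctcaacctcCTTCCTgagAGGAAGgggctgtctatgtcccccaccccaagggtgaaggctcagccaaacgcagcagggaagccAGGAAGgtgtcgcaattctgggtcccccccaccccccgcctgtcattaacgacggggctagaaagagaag
Ifngr1, chr10:19591699-19591998, plus strand: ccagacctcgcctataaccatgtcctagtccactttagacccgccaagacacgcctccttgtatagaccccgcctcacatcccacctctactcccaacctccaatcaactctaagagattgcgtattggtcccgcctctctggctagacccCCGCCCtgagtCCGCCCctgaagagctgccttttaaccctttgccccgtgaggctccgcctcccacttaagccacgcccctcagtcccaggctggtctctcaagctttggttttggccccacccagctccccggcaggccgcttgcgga

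The Il6st window held 1 match to the ETS-IRF composite element, read as TTTCCGTTCC and beginning 224 bases before the start, and 2.72% of the 32851 promoter windows of the same length hold at least 1. It also held 3 GC boxes, as did the Met window, and 10.7% of all windows hold 3 or more. The Csf3r window held 4 matches to AGGAAG, a number reached by 0.432% of all windows, while 35.4% hold at least 1. The Ifngr1 window held 2 GC boxes, which 19.5% of all windows have at least, and the Flt3 window held none of the 5 motifs. The interferon-stimulated response element core and AGATAA, found in 3.44% and 11.2% of all windows, were in none of the 5 windows. A match is a match of letters and not a bound site. The windows of Il6st and Met are rich in CpG, with 33 and 34 CpG dinucleotides against a median of 7 over all windows, and GC contents of 68.3% and 75.7% against a median of 52.7%. Flt3 had 18 CpG dinucleotides, Ifngr1 had 14 and Csf3r had 9.

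Values are log2 expression levels, and 1 unit is a doubling. The median of an array lay between 4.33 and 4.48, and the median of all values was 4.38. A level near or under it can be background of the hybridisation, and no fold is given where a group mean is there. Levels of different probe sets are not compared, since probes differ in how well they bind. A difference was called at an adjusted p under 0.05 in the limma fit over all arrays and probe sets, and SE is its standard error. Its p-values rest on the spread between pools, which is all that replicates these groups. The 6 progenitor markers averaged 9.91 to 10.9 in the MDP pools, against 3.95 to 6.30 in the spleen pools. The 8 granulocyte markers averaged 12.05 to 12.40 in granulocyte pools, whose 6 NK cell markers also averaged 7.13 to 7.93, against 4.64 to 4.84 in macrophage pools. In macrophages 5 of 7 markers were over the median, and Mertk and C1qa were under it. Among the wild-type MDP pools, pool 3 stood apart, with erythroid and megakaryocyte markers at a mean of 8.15 against 5.57 and 6.06 in the other pools. Its granulocyte markers averaged 8.57 against 4.79 and 4.41, its mast cell and basophil markers 6.95 against 4.43 and 4.51, and its NK cell markers 5.70 against 4.60 and 4.62. The macrophage markers of pool 3 averaged 5.61 against 4.35 and 4.40, and its T cell markers 4.53 against 3.86 and 3.81. In a sorted pool, fewer cells of a type and less RNA per cell cannot be told apart.

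The targeted gene itself gave no difference between knockout-labelled and wild-type MDPs. Irf8 averaged 10.31 ± 0.12 in the knockout-labelled pools and 10.34 ± 0.19 in the wild-type pools (SD, n = 3 each), and the sources used here do not say where its probes lie relative to the disruption. In the reporter mice Irf8 averaged 5.87 ± 0.54 in VENUS-negative (n = 2) and 10.88 ± 0.19 in VENUS-positive MDPs (n = 3).

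**Figure D1:**
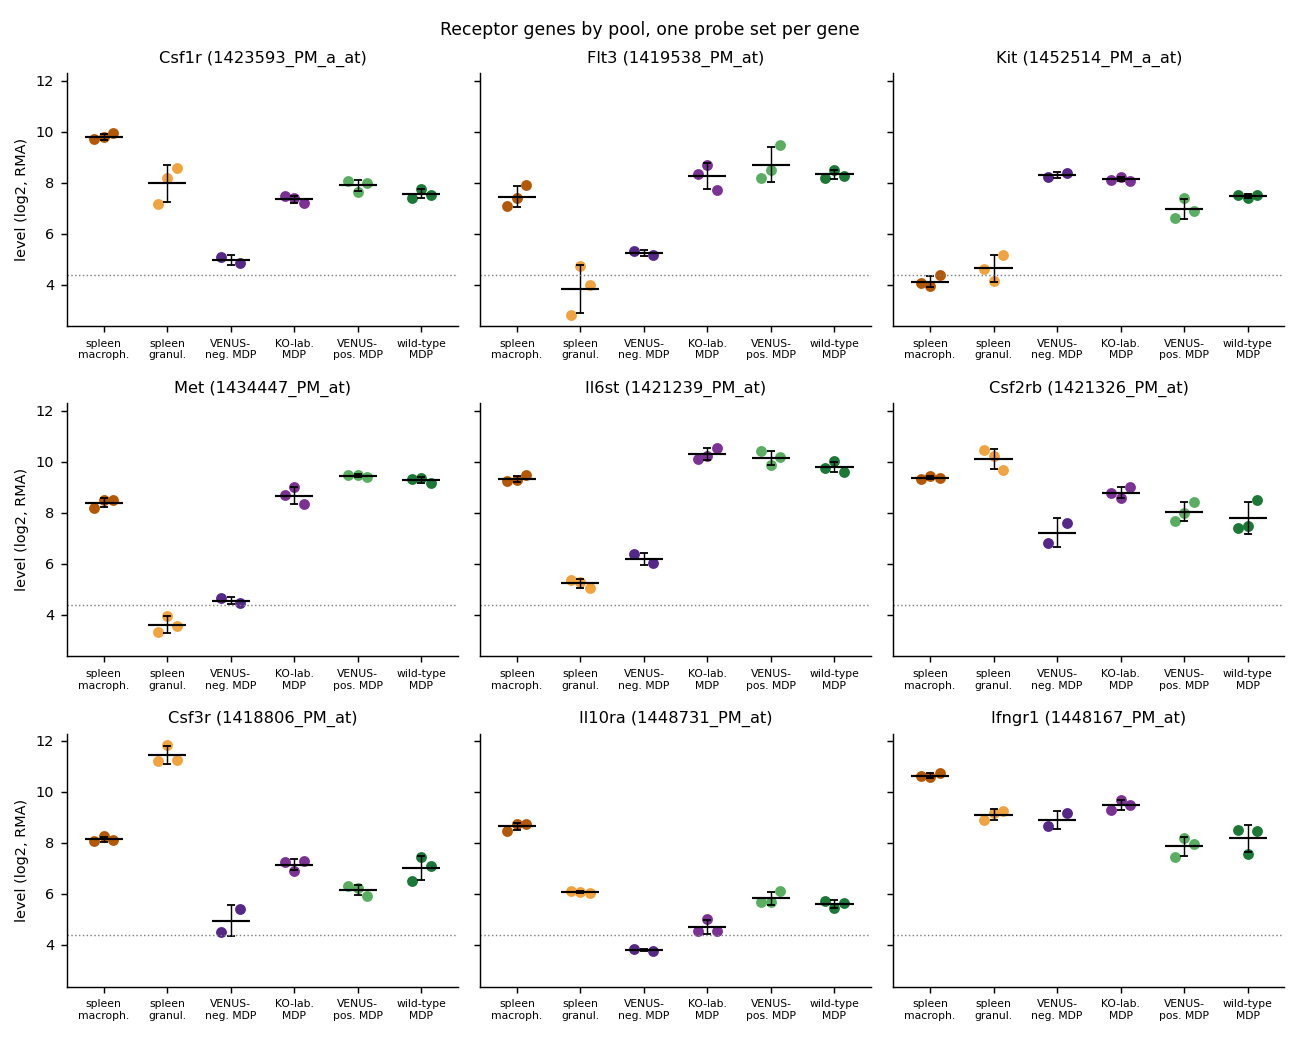
Log2 level of the 9 receptor genes in every pool, with the probe set of highest mean for genes with several. Groups run from spleen macrophages and granulocytes through VENUS-negative, knockout-labelled, VENUS-positive and wild-type MDPs. Points are pools, bars are the group mean ± SD, and the dotted grey line is the median of all values, 4.38. Csf1r, Flt3, Met, Il6st and Il10ra are lower in the VENUS-negative than in the other MDP groups, and Kit is high in every MDP group and near the dotted line in both spleen groups.

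In knockout-labelled MDPs, the interferon-gamma receptor chain Ifngr1 was higher and the interleukin-10 receptor chain Il10ra was lower than in wild-type MDPs. The growth factor receptors were not called. Of the 14 probe sets 2 were called, 1 higher and 1 lower, where 0.575% of all probe sets were called. The pools of the 2 groups did not overlap for 9 of the 14 probe sets, where 13.6% of all probe sets had no overlap. The median difference of the 14 was 0.15, against 0.01 over all probe sets. The count was 0 without knockout-labelled pool 3 and 3 without wild-type pool 3. With only the arrays of these groups in the fit, neither Ifngr1 nor Il10ra was called (adjusted p of 0.219 and 0.179). Erythroid and megakaryocyte markers averaged 3.95 to 4.17 in the knockout-labelled pools, against 5.57 to 8.15 in the wild-type pools. Of 9 such markers 3 were called lower, the globins Hbb-b2 (-5.47) and Hba-a1 (-4.76) and the carbonic anhydrase Car1 (-3.72). Granulocyte markers averaged 6.20 to 6.91 in knockout-labelled pools, against 4.41 to 8.57 in wild-type pools, and 1 of 8, Mmp8 (4.03), was called higher. The progenitor marker Cd34 (-1.25) was called lower and the B cell marker Vpreb1 (2.46) higher. The part of these markers in the receptor differences was not tested.

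In VENUS-negative MDPs, 10 of the 14 probe sets were called lower and 2, those of Kit and Ifngr1, were called higher when set against VENUS-positive MDPs. Of all probe sets 4.44% were called. The largest differences were those of Met, Il6st, Flt3 and Csf1r. The pools did not overlap for 13 of the 14 probe sets, where 27.7% of all probe sets had no overlap. The median difference was -2.36, against -0.01 over all probe sets. With only the arrays of these groups in the fit, 7 of the 12 were called. Markers of other lineages moved with this comparison. Erythroid and megakaryocyte markers averaged 8.77 and 9.55 in the VENUS-negative pools, against 5.20 to 5.77 in the VENUS-positive pools, and 6 of 9 were called higher. Mast cell and basophil markers averaged 7.73 and 7.79 in VENUS-negative pools, against 4.27 to 4.46 in VENUS-positive pools, and 4 of 6 were called higher. The progenitor marker Cd34 (-1.56), the macrophage markers Cx3cr1 (-1.94) and Cd68 (-1.70) and the B cell marker Cd79b (-1.44) were called lower. The NK cell markers Gzmb (2.47) and Nkg7 (2.19) were called higher. The part of these markers in the receptor differences was not tested.

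VENUS-negative MDPs also differed from knockout-labelled MDPs, in 11 of the 14 probe sets, 0 higher and 11 lower, where 4.74% of all probe sets were called. The 3 that were not called belonged to Kit, Ifngr1 and Csf2rb. This comparison shares the VENUS-negative pools with the preceding one. Here too the erythroid and megakaryocyte markers were higher, 8 of 9 called, with pool means of 8.77 and 9.55 in VENUS-negative against 3.95 to 4.17 in knockout-labelled MDPs. Mast cell and basophil markers were called higher in 4 of 6, with pool means of 7.73 and 7.79 in VENUS-negative against 4.37 to 4.59 in knockout-labelled MDPs. The granulocyte marker Mmp8 (-5.59), the macrophage markers Cd68 (-1.89) and Cx3cr1 (-1.74) and the progenitor marker Prtn3 (-1.48) were called lower. The NK cell marker Gzmb (2.61) was called higher. The part of all these markers in the receptor differences was not tested.

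No receptor probe set was called between VENUS-positive and wild-type MDPs, and neither was any other, with 0% of the 45037 called by limma. At an unadjusted p under 0.05, 1 of the 14 probe sets passed, that of Csf3r, and 2661 of all probe sets, or 5.91%. Csf3r stood at 6.32, 6.23 and 5.94 in VENUS-positive pools, against 6.52, 7.44 and 7.08 in wild-type pools. The difference was -0.86 (SE 0.26, adjusted p = 0.636), and the pools did not overlap. The other 13 differences lay between -0.50 for Kit and 0.39 for Flt3. The 95% interval was -0.24 to 0.90 for Csf1r, -0.52 to 1.30 for Flt3 and -0.999 to 0.01 for Kit.

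The size of the change was then compared between the 2 pairs of MDP groups, which share no pools, as the VENUS-negative minus VENUS-positive difference less the knockout-labelled minus wild-type difference. This test was added after the data were seen. It was called for 8 of the 14 probe sets, where 2.35% of all probe sets were called. They were the 3 of Il6st, 1 of the 2 of Met, and those of Flt3, Csf1r, Il10ra and 1 of Csf2rb, and all were lower. For Il6st the differences of differences were -4.46 (SE 0.26, adjusted p = 5.98e-07), -4.39 and -3.58. For Met it was -4.30 (adjusted p = 1.58e-06) by 1434447_PM_at and -2.002 (adjusted p = 0.0618) by 1422990_PM_at. Flt3 gave -3.39 (adjusted p = 0.00976) and Csf1r -2.72 (adjusted p = 0.00162). Il10ra gave -1.11 (adjusted p = 0.0224), and Csf2rb gave -1.06 (adjusted p = 0.0491) by 1450200_PM_s_at. The Il10ra call ended without wild-type pool 2 or either VENUS-negative pool (adjusted p of 0.0580, 0.0643 and 0.0686), and the Csf2rb call ended when any 1 of most pools was left out (adjusted p up to 0.178). Kit (0.66, adjusted p = 0.543), Csf3r (-1.34, adjusted p = 0.111) and Ifngr1 (-0.24, adjusted p = 0.919) were not called.

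**Figure D2:**
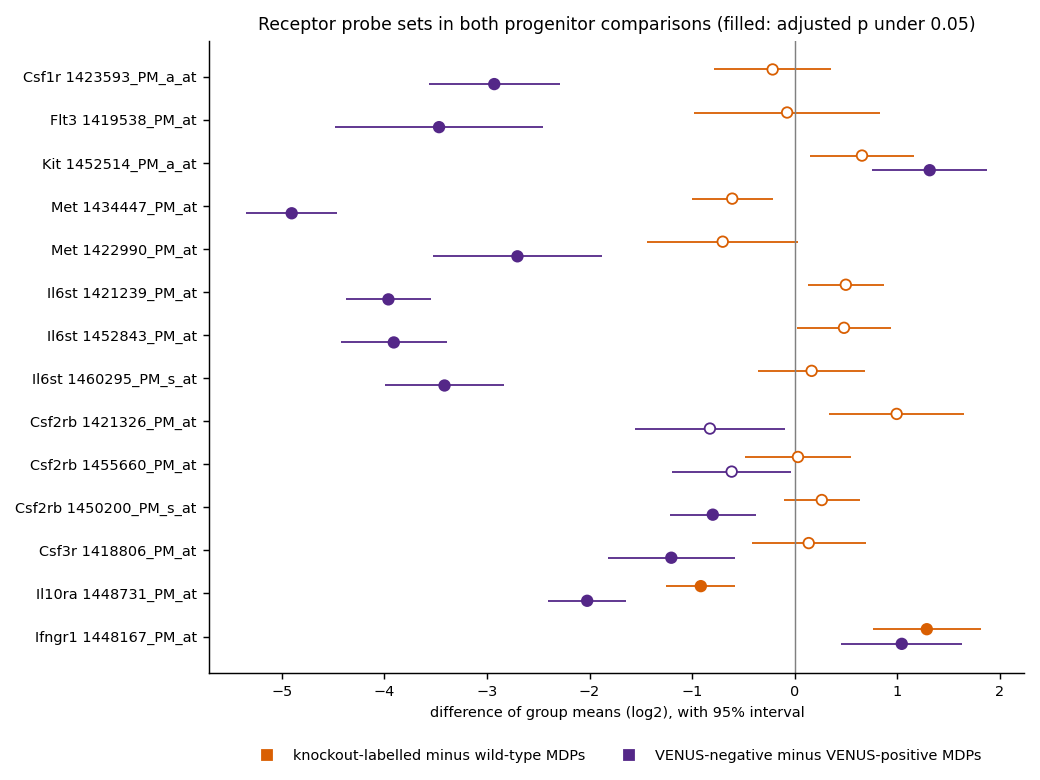
Log2 difference of each of the 14 probe sets for VENUS-negative minus VENUS-positive MDPs (purple) and knockout-labelled minus wild-type MDPs (orange), from the limma fit. Bars are 95% intervals, and filled points have an adjusted p under 0.05. The purple points of Met, Il6st, Flt3 and Csf1r lie between -4.91 and -2.70, and only Il10ra and Ifngr1 have a filled orange point.

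Csf1r, the receptor for M-CSF and IL-34 and a gate of the MDP and macrophage sorts, was at 5.09 and 4.83 in the VENUS-negative pools. It stood at 8.05, 7.63 and 7.99 in VENUS-positive pools, at 7.47, 7.39 and 7.19 in knockout-labelled pools and at 7.40, 7.76 and 7.52 in wild-type MDP pools. The VENUS-negative pools were the lowest of all 17 and stood apart, although they were gated as MCSFR+. Csf1r differed between VENUS-negative and VENUS-positive MDPs by a difference of -2.93 (SE 0.30, adjusted p = 3.87e-05). Against knockout-labelled MDPs the difference was -2.39 (adjusted p = 1.92e-04). Knockout-labelled and wild-type MDPs overlapped, with a difference of -0.21 and a 95% interval of -0.78 to 0.36.

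In the spleen, Csf1r stood at 9.70, 9.77 and 9.93 in macrophages and at 7.16, 8.19 and 8.56 in granulocytes. Macrophages were higher than every other pool. The granulocyte pools, gated as MCSFR-, overlapped the VENUS-positive, knockout-labelled and wild-type MDPs. The macrophage minus granulocyte difference was 1.83 (SE 0.27, adjusted p = 1.43e-04), and the macrophage minus wild-type MDP difference was 2.24 (adjusted p = 2.94e-05). The granulocyte minus wild-type MDP difference of 0.41 had an adjusted p of 0.245. Granulocyte pool 1 was the low one, and without it this difference was 0.82 (adjusted p = 0.00239).

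Flt3, the receptor of Flt3 ligand on early and dendritic cell progenitors, was at 5.33 and 5.15 in VENUS-negative pools. It stood at 8.17, 8.49 and 9.46 in VENUS-positive pools, 8.34, 8.69 and 7.71 in knockout-labelled pools and 8.20, 8.51 and 8.26 in wild-type MDP pools. The last 3 groups overlapped, and the VENUS-negative pools lay under all of them. The VENUS-negative minus VENUS-positive difference was -3.47 (SE 0.47, adjusted p = 4.95e-04), 11.1-fold. The VENUS-negative minus knockout-labelled difference was -3.01 (adjusted p = 0.00137). Between knockout-labelled and wild-type MDPs it was -0.07, with a 95% interval of -0.98 to 0.84.

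Flt3 was also present in the spleen macrophage pools, at 7.07, 7.39 and 7.90, against 2.82, 4.71 and 3.97 in granulocytes. The macrophage pools lay above every granulocyte pool, and granulocytes were at or under the median of all values in 2 of 3 pools. The macrophage minus granulocyte difference was 3.62 (SE 0.42, adjusted p = 2.06e-05). Macrophages overlapped the knockout-labelled MDPs and lay below wild-type MDPs, by a difference of -0.87 (adjusted p = 0.202). Of the other 3 dendritic cell markers measured, Cd209a was at 8.57, 8.82 and 8.86 in macrophages and 3.82, 3.87 and 3.88 in granulocytes (difference 4.89, adjusted p = 3.64e-10). Zbtb46 gave a difference of 0.78 (adjusted p = 0.0832), and Xcr1 was under the median of all values in every pool. The macrophages had been gated as CD11c-, and the part of these markers in the Flt3 level was not tested.

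Kit, the stem cell factor receptor whose surface protein gated all MDP groups, had its highest levels in VENUS-negative MDPs. It stood at 8.20 and 8.38 in VENUS-negative pools, against 6.62, 7.40 and 6.89 in VENUS-positive pools. It stood at 8.08, 8.21 and 8.08 in knockout-labelled pools, against 7.50, 7.38 and 7.52 in wild-type MDP pools. Neither pair overlapped, while the VENUS-negative and knockout-labelled pools did. The VENUS-negative minus VENUS-positive difference was 1.32 (SE 0.26, adjusted p = 0.00885), 2.49-fold, and leaving out VENUS-negative pool 2 took the adjusted p to 0.0735. The knockout-labelled minus wild-type difference was 0.66, with a 95% interval of 0.15 to 1.16 and an adjusted p of 0.384 over all probe sets. In the spleen Kit was near the median of all values, at 4.05, 3.92 and 4.36 in macrophages and 4.61, 4.13 and 5.18 in granulocytes. Both spleen groups were lower than wild-type MDPs, by differences of -3.35 (adjusted p = 2.52e-07) for macrophages and -2.83 (adjusted p = 3.50e-07) for granulocytes.

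Met, the receptor of hepatocyte growth factor, had the largest difference of all the receptors between the reporter groups. By 1434447_PM_at it was at 4.65 and 4.45 in VENUS-negative pools, against 9.49, 9.48 and 9.39 in VENUS-positive pools. The same probe set gave 8.69, 8.999 and 8.33 in knockout-labelled pools, against 9.33, 9.37 and 9.15 in wild-type MDP pools. VENUS-negative pools stood just over the median of all values, and the other MDP pools were all at 8.33 or higher. The VENUS-negative minus VENUS-positive difference was -4.91 (SE 0.21, adjusted p = 9.06e-09). The knockout-labelled pools lay under the wild-type pools without overlap, by a difference of -0.61 with an adjusted p of 0.248.

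The other Met probe set, 1422990_PM_at, gave lower values and wider spread. It stood at 3.64 and 4.18 in VENUS-negative pools, against 5.71, 7.45 and 6.68 in VENUS-positive pools, a difference of -2.70 (SE 0.38, adjusted p = 6.66e-04). Its knockout-labelled minus wild-type difference was -0.70 (adjusted p = 0.664). Across the 17 arrays the 2 probe sets correlated at r = 0.914, and they gave the same direction in each of these comparisons.

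In the spleen, Met by 1434447_PM_at was at 8.20, 8.50 and 8.50 in macrophages and 3.31, 3.96 and 3.55 in granulocytes. The macrophage pools were near the knockout-labelled MDPs and the granulocyte pools were under the median of all values. The macrophage minus granulocyte difference was 4.79 (SE 0.18, adjusted p = 5.16e-10), and macrophages were lower than wild-type MDPs by a difference of -0.88 (adjusted p = 0.00305). By 1422990_PM_at the 2 differences were 1.56 (adjusted p = 0.00387) and -1.49 (adjusted p = 0.00612).

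Il6st encodes gp130, the signalling chain shared by the receptors of IL-6, LIF, oncostatin M and related cytokines. By 1421239_PM_at it was at 6.37 and 6.03 in VENUS-negative pools, against 10.42, 9.88 and 10.18 in VENUS-positive pools. Knockout-labelled pools gave 10.10, 10.24 and 10.54, against 9.75, 10.01 and 9.61 in wild-type MDP pools. The VENUS-negative pools were far below all other MDP pools. The VENUS-negative minus VENUS-positive difference was -3.96 (SE 0.19, adjusted p = 4.95e-08), 15.6-fold. The other probe sets gave -3.91 (adjusted p = 3.25e-07) by 1452843_PM_at and -3.41 (adjusted p = 4.26e-06) by 1460295_PM_s_at. The suffix s marks a probe set that can also match another transcript, so its value is less certain.

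Between knockout-labelled and wild-type MDPs the 3 Il6st probe sets gave 0.50, 0.48 and 0.17, and none was called, with adjusted p values of 0.366, 0.584 and 0.977. The pools did not overlap for the first 2 and overlapped for the last. In the spleen Il6st by 1421239_PM_at was at 9.24, 9.30 and 9.46 in macrophages and 5.37, 5.28 and 5.03 in granulocytes. The macrophages were close to the wild-type MDPs and the granulocytes were the lowest group. The macrophage minus granulocyte difference was 4.11 (SE 0.17, adjusted p = 1.63e-09). Macrophages and wild-type MDPs gave different answers by probe set, with differences of -0.46 (adjusted p = 0.0888), 0.09 (adjusted p = 0.860) and -1.06 (adjusted p = 0.00599).

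Csf2rb encodes the common beta chain of the GM-CSF, IL-3 and IL-5 receptors, and its 3 probe sets did not give the same answers. By 1455660_PM_at it was at 6.49 and 7.76 in VENUS-negative pools, against 7.45, 7.85 and 7.91 in VENUS-positive pools. The pools overlapped, with a difference of -0.61 (adjusted p = 0.296), which was -1.25 (adjusted p = 0.00370) without VENUS-negative pool 2 and 0.02 without VENUS-negative pool 1. Only 1450200_PM_s_at was called for these groups, at -0.80 (SE 0.19, adjusted p = 0.0308), and it was not called without VENUS-positive pool 3, VENUS-negative pool 1 or VENUS-negative pool 2 (adjusted p of 0.0972, 0.212 and 0.0677). Mice have a close paralogue of this gene, Csf2rb2, the IL-3-specific beta chain, whose transcript could share probes with these sets.

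Between knockout-labelled and wild-type MDPs, 1421326_PM_at stood at 8.79, 8.56 and 9.01 against 7.40, 7.46 and 8.51. The pools did not overlap, the difference was 0.996 (SE 0.31, adjusted p = 0.258), and without wild-type pool 3, the high one and the one with the high granulocyte markers, it was 1.35 (adjusted p = 0.0467). The other probe sets gave 0.03 by 1455660_PM_at and 0.27 by 1450200_PM_s_at (adjusted p of 0.997 and 0.825). Against knockout-labelled MDPs, VENUS-negative MDPs were lower by 1421326_PM_at (-1.58, adjusted p = 0.0146) and 1450200_PM_s_at (-0.96, adjusted p = 0.00945), and not called by 1455660_PM_at (-0.91, adjusted p = 0.0778, and -1.55 with an adjusted p of 6.57e-04 without VENUS-negative pool 2). Without VENUS-negative pool 1 neither of the first 2 was called (adjusted p of 0.188 and 0.1005).

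In the spleen the 3 probe sets gave 1 order, with granulocytes over macrophages over all MDP groups in the means. By 1455660_PM_at Csf2rb was at 9.55, 9.75 and 9.74 in macrophages and 10.58, 10.50 and 10.50 in granulocytes, and wild-type MDPs had 7.77, 8.02 and 8.22. The 3 groups did not overlap. Granulocytes exceeded wild-type MDPs by 2.32, 2.52 and 2.38 over the 3 probe sets, all called, and macrophages by 1.58, 1.68 and 1.57, all called. The macrophage minus granulocyte differences were -0.74 (adjusted p = 0.0957), -0.85 (adjusted p = 0.0194) and -0.81 (adjusted p = 0.00326), and -0.85 was not called without macrophage pool 1 (adjusted p = 0.0689).

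**Figure D3:**
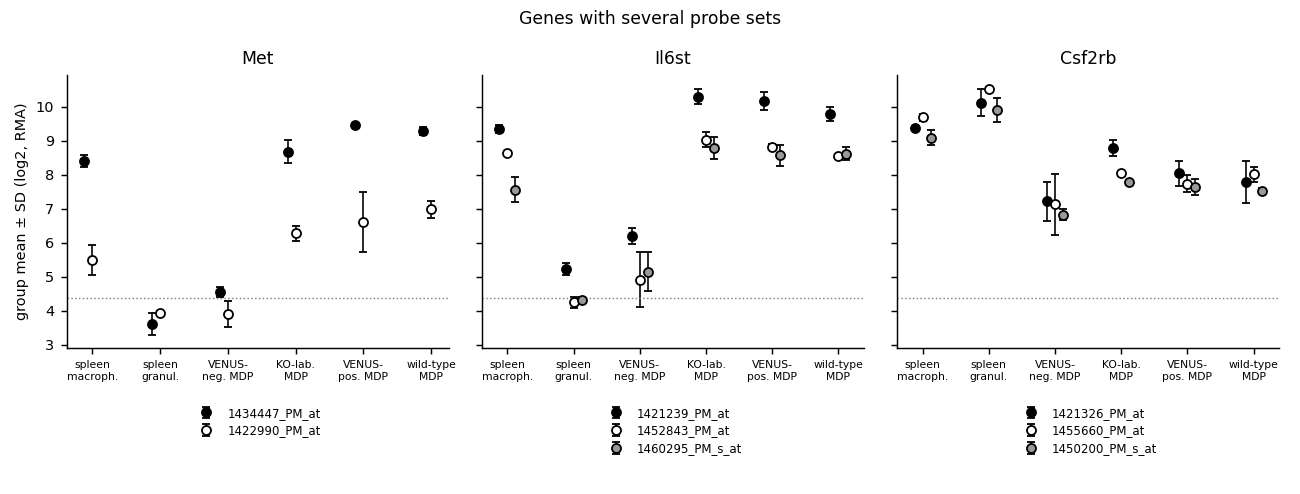
Mean log2 level of each group by each probe set of Met, Il6st and Csf2rb, with bars for the SD over pools and the dotted grey line at 4.38, the median of all values. Groups run from spleen macrophages and granulocytes through VENUS-negative, knockout-labelled, VENUS-positive and wild-type MDPs. All Met and Il6st probe sets have their lowest means in the VENUS-negative MDPs and granulocytes, and all Csf2rb probe sets have their highest in granulocytes.

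Csf3r, the G-CSF receptor of neutrophils and their precursors, followed the granulocytes. It was at 8.07, 8.26 and 8.12 in macrophages and 11.22, 11.83 and 11.25 in granulocytes. Every granulocyte pool exceeded every other pool. The macrophage minus granulocyte difference was -3.28 (SE 0.26, adjusted p = 5.07e-07), and granulocytes exceeded wild-type MDPs by 4.42 (adjusted p = 1.23e-08), 21.4-fold. The NK cell markers given above were also higher in the granulocyte pools, and their part in the result was not tested.

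Among the progenitors Csf3r was at 4.52 and 5.40 in VENUS-negative pools, against 6.32, 6.23 and 5.94 in VENUS-positive pools. Knockout-labelled pools had 7.26, 6.91 and 7.29, against 6.52, 7.44 and 7.08 in wild-type pools. VENUS-negative pools were the lowest, VENUS-positive pools lay between, and the last 2 groups overlapped. The VENUS-negative minus VENUS-positive difference of -1.20 (SE 0.29, adjusted p = 0.0286) was -0.76 without VENUS-negative pool 1 (adjusted p = 0.318), and it was not called without VENUS-positive pool 1 or 2 either (adjusted p of 0.0827 and 0.0744). The VENUS-negative minus knockout-labelled difference was -2.20 (adjusted p = 3.14e-04). The knockout-labelled minus wild-type difference was 0.14, with a 95% interval of -0.42 to 0.69.

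Il10ra, the ligand-binding chain of the IL-10 receptor, was at 4.53, 5.01 and 4.53 in knockout-labelled pools, against 5.73, 5.45 and 5.63 in wild-type MDP pools. All knockout-labelled pools were lower, and they lay near the median of all values. The difference was -0.91 (SE 0.16, adjusted p = 0.0137). The call ended when wild-type pool 1 was left out, and likewise for knockout-labelled pools 1 and 3 (adjusted p of 0.0812, 0.0591 and 0.0692). Without wild-type pool 3, which had the high erythroid and granulocyte markers, the difference was -0.90 (adjusted p = 0.0446).

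In the reporter mice Il10ra was at 3.82 and 3.78 in VENUS-negative pools, under the median of all values, against 5.67, 5.69 and 6.12 in VENUS-positive pools. The VENUS-positive pools overlapped wild-type MDPs, and no pool of the VENUS groups overlapped the other. The difference was -2.02 (SE 0.18, adjusted p = 8.86e-06). In the spleen Il10ra was at 8.48, 8.73 and 8.72 in macrophages and 6.13, 6.06 and 6.04 in granulocytes. Macrophages were the highest group, and their difference from granulocytes was 2.57 (SE 0.16, adjusted p = 4.85e-08), 5.92-fold. Granulocytes exceeded wild-type MDPs by 0.47 (adjusted p = 0.0280), a call that ended when any 1 granulocyte pool or wild-type pool 2 or 3 was left out (adjusted p from 0.0519 to 0.0969).

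Ifngr1, the ligand-binding chain of the interferon-gamma receptor, was at 9.27, 9.67 and 9.48 in knockout-labelled pools, against 8.51, 7.58 and 8.45 in wild-type MDP pools. All knockout-labelled pools were higher, and wild-type pool 2 was the low one of its group. The difference was 1.29 (SE 0.25, adjusted p = 0.0292), 2.44-fold. Without wild-type pool 2 it was 0.99 (adjusted p = 0.0863), and it was not called without knockout-labelled pool 2 or 3 either (adjusted p of 0.129 and 0.0918). Leaving out macrophage pool 1 or 2, which keeps the difference and alters the estimate of the spread, gave an adjusted p of 0.0520 and 0.0512. Without wild-type pool 3 it was 1.43 (adjusted p = 0.0321).

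The VENUS-negative pools had Ifngr1 at 8.67 and 9.17, against 7.46, 8.19 and 7.97 in VENUS-positive pools. The VENUS-negative pools were higher and did not overlap. The difference of 1.05 (SE 0.28, adjusted p = 0.0461) ended as a call when VENUS-negative pool 2 was left out (0.80, adjusted p = 0.330), and also without VENUS-negative pool 1 or VENUS-positive pool 1 or 3 (adjusted p of 0.0620, 0.142 and 0.0748). Leaving out any 1 macrophage or knockout-labelled pool, or granulocyte pool 2 or 3, also ended it, with adjusted p values up to 0.0669. VENUS-negative and knockout-labelled pools differed by -0.56, with a 95% interval of -1.15 to 0.03 and an adjusted p of 0.380. In the spleen Ifngr1 was at 10.62, 10.57 and 10.73 in macrophages and 8.89, 9.18 and 9.27 in granulocytes. Macrophages were the highest group, with a difference from granulocytes of 1.53 (SE 0.25, adjusted p = 3.51e-04) and from wild-type MDPs of 2.46 (adjusted p = 6.54e-06).

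Between the spleen groups, macrophages and granulocytes differed in the RNA levels of most of these receptors. Macrophages were higher than granulocytes in 9 of the 14 probe sets, those of Met, Il6st, Flt3, Il10ra, Csf1r and Ifngr1, and lower in 3, those of Csf3r and 2 of Csf2rb. Of all probe sets 24.9% were called. Against wild-type MDPs, macrophages were called higher for 7 probe sets and lower for 4, where 18.9% of all probe sets were called. Granulocytes were called higher than wild-type MDPs for 6 and lower for 7, where 38.4% of all probe sets were called and the median of all probe sets was shifted by 0.11. These last comparisons share the wild-type MDP pools. Marrow progenitors and spleen cells also differ in tissue, which cannot be told apart from cell type here.

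**Figure D4:**
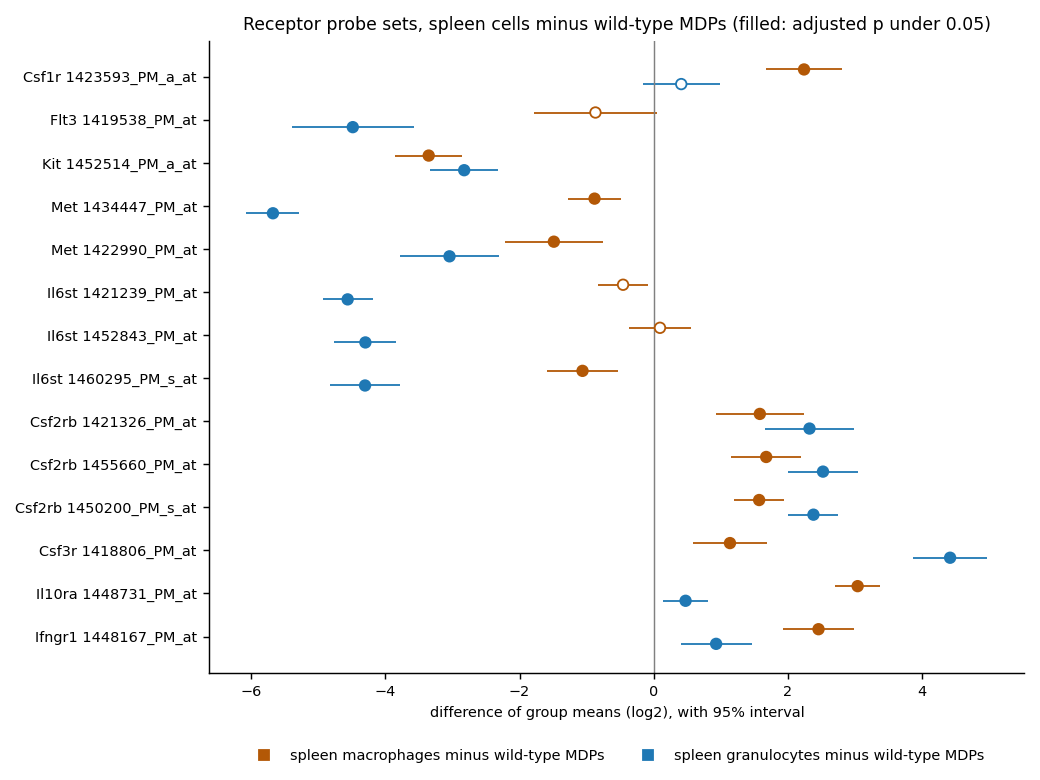
Log2 difference of each of the 14 probe sets for spleen macrophages (brown) and spleen granulocytes (blue), each minus wild-type MDPs, from the limma fit. Bars are 95% intervals, and filled points have an adjusted p under 0.05. The blue points of Met, Il6st and Flt3 lie between -5.68 and -3.04 and that of Csf3r at 4.42, while the brown points of Il10ra, Ifngr1 and Csf1r lie at 3.04, 2.46 and 2.24.

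Over the 17 arrays, Met, Il6st and Flt3 had each other among the 3 genes most like them. Likeness was Pearson's r of the highest probe set of each gene over 10230 candidate genes. It was 0.980 for Met with Il6st, 0.970 for Met with Flt3 and 0.952 for Flt3 with Il6st. The remaining places went to F13a1 (coagulation factor XIII A chain), at 0.969 with Met and 0.971 with Il6st, and to BC035044 with Flt3. Csf1r was most like Ahnak (0.971), Cst3 and Ctss. Kit was most like Myb (0.969), Afap1l1 and Ctsg. Csf3r was most like Cebpd (0.973), Chp1 and Pgd, and Csf2rb like Hp (0.970), Kctd20 and Plaur. Il10ra was most like Thbd (0.961), Irf5 and Casp1, and Ifngr1 like Parp12 (0.919), Xaf1 and Nlrc5. These arrays fall into 6 groups, so r mostly follows the group means, and it is given as a description.

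Of the 10 ligand genes, Il34, Csf2, Csf3, Kitl, Il6, Il10 and Ifng had means under the median of all values in every group. None of the 10 ligand genes was called between knockout-labelled and wild-type MDPs, where 0.784% of all genes were called (1 probe set per gene). Between VENUS-negative and VENUS-positive MDPs 2 were called, both higher, where 5.4% of all genes were called. Hgf, the ligand of Met, was at 6.36 and 7.50 in VENUS-negative pools, against 3.47, 4.66 and 3.84 in VENUS-positive pools. The pools did not overlap and the difference was 2.94 (adjusted p = 0.00610). Flt3l, the ligand of Flt3, was at 5.00 and 5.13 in VENUS-negative pools, against 3.65, 3.18 and 3.40 in VENUS-positive pools, a difference of 1.65 (adjusted p = 0.0419). Thus, against VENUS-positive MDPs, the ligands of 2 receptors were higher in the pools where those receptors were lower. Both ligands had VENUS-positive means under the median of all values, 3.99 for Hgf and 3.41 for Flt3l. Wild-type MDPs, where Met and Flt3 were high, had means of 5.85 and 4.85. Against knockout-labelled MDPs none of the 10 ligand genes was called in VENUS-negative MDPs, where 5.82% of all genes were called. Csf1, which encodes M-CSF, was at 5.25, 5.01 and 5.43 in macrophages and 8.16, 9.56 and 8.50 in granulocytes, a difference of -3.51 (adjusted p = 1.44e-06). No ligand was called between macrophages and wild-type MDPs, where 22.4% of all genes were called. In granulocytes 3 were higher than in wild-type MDPs, where 43.8% of all genes were called. They were Csf1 (3.69), Hgf (1.43) and Csf2 (0.42), with Csf2 under the median of all values in every pool.

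Of 19 partner and related receptor chains 14 were measured. Between VENUS-negative and VENUS-positive MDPs 1 was called higher and 3 lower, where 5.4% of all genes were called. Il6ra, the IL-6-binding chain that pairs with gp130, was at 6.26 and 6.99 in VENUS-negative pools, against 9.03, 8.77 and 8.67 in VENUS-positive pools. The pools were far apart, with a difference of -2.19 (adjusted p = 4.19e-05). Ifngr2, the signalling partner of Ifngr1, was at 5.57 and 6.37 in VENUS-negative pools, against 7.40, 7.69 and 7.72 in VENUS-positive pools, a difference of -1.63 (adjusted p = 9.29e-04). The 2 chains of the interferon-gamma receptor therefore differed in opposite directions in this comparison, although the Ifngr1 call ended when any 1 of many pools was left out. Against knockout-labelled MDPs, Ifngr2 was called lower in VENUS-negative MDPs and Ifngr1 was not called. Epor, the erythropoietin receptor and itself an erythroid marker, was at 9.23 and 7.54 in VENUS-negative pools, against 3.89, 4.42 and 4.23 in VENUS-positive pools, a difference of 4.20 (adjusted p = 6.41e-05). Lifr, the LIF receptor chain, was lower by a difference of -1.03 (adjusted p = 0.0456).

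None of the 14 chains was called between knockout-labelled and wild-type MDPs, and none between VENUS-positive and wild-type MDPs. Of all genes 0.784% and 0% were called in these comparisons. Against knockout-labelled MDPs, VENUS-negative MDPs had Epor higher (4.12) and Il6ra (-2.09) and Ifngr2 (-1.43) lower, where 5.82% of all genes were called. Macrophages were higher than wild-type MDPs in 7 chains and lower in 0, where 22.4% of all genes were called, with Il13ra1 (4.44), Lifr (2.53), Tgfbr2 (2.42) and Csf2rb2 (2.12) leading. Granulocytes were higher in 8 and lower in 1, where 43.8% were called, with Il13ra1 (4.53), Tgfbr2 (2.38), Il10rb (2.07) and Csf2rb2 (2.06) leading. Macrophages were higher than granulocytes in 2 chains, Lifr (2.26) and Il6ra (0.59), and lower in 3, Il10rb (-1.32), Il5ra (-1.10) and Il4ra (-0.82), where 29.6% of all genes were called.

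**Figure D5:**
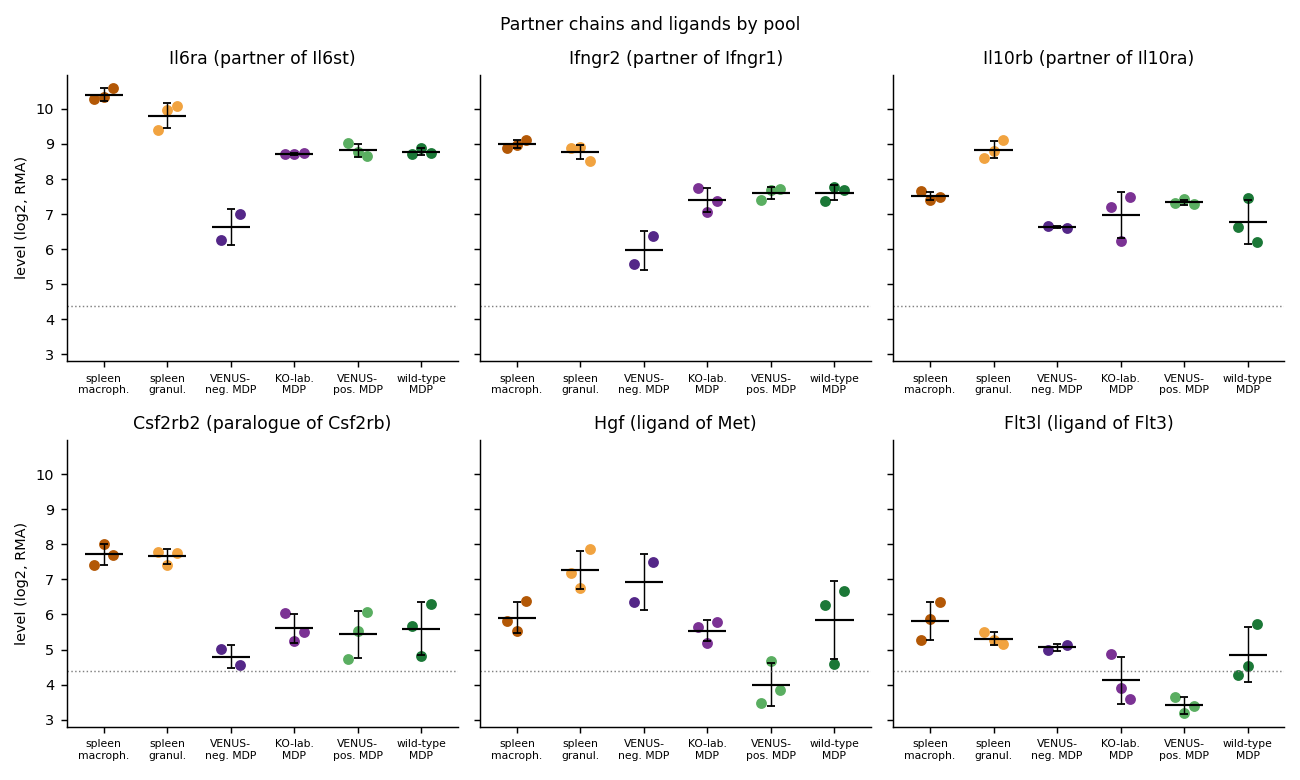
Log2 level in every pool of Il6ra, Ifngr2, Il10rb, Csf2rb2, Hgf and Flt3l, with points for pools, bars for mean ± SD and the dotted grey line at 4.38, the median of all values. Groups run from spleen macrophages and granulocytes through VENUS-negative, knockout-labelled, VENUS-positive and wild-type MDPs. Il6ra and Ifngr2 are lowest in VENUS-negative MDPs, where Hgf and Flt3l are above their VENUS-positive levels.

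Of 28 signalling genes below the receptors 25 were measured. None was called between knockout-labelled and wild-type MDPs, where 0.784% of all genes were called. Between VENUS-negative and VENUS-positive MDPs 1 was higher, Stat5a (1.23), which acts downstream of the GM-CSF and erythropoietin receptors. The phosphatase Ptpn6 (-1.10) and the kinase subunit Pik3cd (-0.68) were lower, where 5.4% of all genes were called. VENUS-negative MDPs had Stat5a (1.00) and Jak2 (0.84) higher and Pik3r1 (-0.76) lower than knockout-labelled MDPs, where 5.82% of all genes were called. In the spleen, macrophages and granulocytes each had 14 of the 25 higher and 1 lower than wild-type MDPs. Of all genes 22.4% were called for macrophages and 43.8% for granulocytes. Socs3, a feedback inhibitor of gp130 and G-CSF receptor signalling, was at 5.04, 5.06 and 4.25 in macrophages and 7.76, 8.19 and 7.28 in granulocytes. It was highest in the granulocytes, where Csf3r was highest and Il6st lowest, and the macrophage minus granulocyte difference was -2.96 (adjusted p = 1.28e-06).

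Of 13 transcription factors that act on such receptor genes 12 were measured. Between knockout-labelled and wild-type MDPs none was called, where 0.784% of all genes were called. Between VENUS-negative and VENUS-positive MDPs 2 were higher, Gata1 (4.53) and Gata2 (2.67), and 4 were lower, among them Irf8 (-5.01) and Klf4 (-4.50), where 5.4% of all genes were called. Spi1, which encodes the ETS factor PU.1, was at 6.48 and 6.23 in VENUS-negative pools, against 7.75, 7.79 and 7.95 in VENUS-positive pools. Its difference was -1.47 (adjusted p = 1.69e-04), and Spi1 was named after its values were seen. The remaining factor called lower was Cebpb, with a difference of -1.54 (adjusted p = 0.0297). Csf1r, Flt3, Met and Il6st were also low in the VENUS-negative pools. Granulocytes, where Flt3, Met and Il6st were also low, had the highest Spi1 mean, 9.35 against 7.55 in wild-type MDPs. Their Gata1 and Gata2 means were 5.72 and 6.02, against 5.70 and 6.08 in wild-type MDPs. Irf8 and Klf4 were called lower in granulocytes, with means of 6.37 and 4.85, against 10.34 and 7.36 in wild-type MDPs. Of the 12 factors, 4 were called higher and 5 lower in granulocytes than in wild-type MDPs, where 43.8% of all genes were called. Whether any of these factors set a receptor level was not tested in the VENUS groups or in granulocytes. Whether the factors and the receptors were in the same cells was not tested either. Against knockout-labelled MDPs, VENUS-negative MDPs had 2 higher and 5 lower of the 12, where 5.82% of all genes were called.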

How the data were processed

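The deposited values are log2 expression values of Affymetrix arrays, made by the authors with Expression Console and RMA per the submitters' processing notes. RMA corrects background, quantile-normalizes arrays and summarises the probes of a set. The sources used here name no version and do not say which arrays shared a normalization run. Quantile normalization gives all arrays a like distribution, so a shift shared by most genes cannot be seen.

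All 45037 probe sets of the 17 arrays were fitted with limma 3.58.1 (R 4.3.3), with 1 mean per group and 11 residual degrees of freedom. The 7 comparisons were two-sided, with Benjamini-Hochberg adjustment over all probe sets and calls at an adjusted p under 0.05. No filter on low values was used. The fit was tested on simulated data. The number of arrays limits the precision.

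The text names every probe set of the 10 receptor genes, the 3 genes most like each, and up to 4 called members per list and comparison. For the transcription factors in the VENUS comparison, all called members are named. Members and lists were chosen with earlier results of these data known. Where genes were counted, the probe set with the highest mean stood for its gene. Of the probe sets, 28898 had 1 symbol, 551 had several, and 15588 are unnamed here. Alternatives were re-normalization, median centring, 1 probe set per gene, a filter on low probe sets, a trend and robust fit, a fit on the compared groups, a replicate block and leaving out each array.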

Additional observations from a re-analysis of the deposited data

Results flagged for a closer look

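The change between VENUS-negative and VENUS-positive MDPs was tested against the change between knockout-labelled and wild-type MDPs, and 8 probe sets differed by limma's test of that difference (adjusted p under 0.05). The differences of the log2 differences were -4.46 for Il6st by 1421239_PM_at, -4.39 by 1452843_PM_at and -3.58 by 1460295_PM_s_at. They were -4.30 for Met by 1434447_PM_at, -3.39 for Flt3 and -2.72 for Csf1r. They were -1.11 for Il10ra and -1.06 for Csf2rb by 1450200_PM_s_at. Of these, only Il10ra was called in both comparisons, lower in VENUS-negative and lower in knockout-labelled MDPs. Erythroid, megakaryocyte, mast cell and basophil markers moved with the VENUS comparison, as did some progenitor, macrophage, B cell and NK cell markers. The part of all these markers was not tested. Groups of 2 or 3 pools are too small for a test of single outlying pools.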

How the results depend on the processing

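Of 2690 values recomputed for the 14 probe sets, 2568 kept their direction and their side of the threshold, 90 lost a call, 20 gained one and 12 changed sign, none of which had been called. With only the arrays of both groups, 0 were called for knockout-labelled against wild-type MDPs and 7 for VENUS-negative against VENUS-positive MDPs, where fewer arrays estimate the spread. With the trend and robust fit 1 was called for knockout-labelled against wild-type MDPs, and the cause was not tested. Leaving out each pool gave 0 to 3 for knockout-labelled against wild-type, 9 to 12 for VENUS-negative against VENUS-positive, 9 to 11 for VENUS-negative against knockout-labelled and 0 for VENUS-positive against wild-type MDPs. It gave 11 to 13 for macrophages against granulocytes, 11 for macrophages against wild-type MDPs, 12 to 13 for granulocytes against wild-type MDPs and 6 to 9 for the difference of differences. Where a group was left with 1 pool, that pool is assumed to vary like the other groups.

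Pool numbers are shared between groups. Deviations of same-numbered pools from their group means gave r from -0.09 to 0.13 (40 pairs, median 0.03). Differently numbered pools gave r from -0.17 to 0.19 (80 pairs, median -0.02). Deviations from the mean of so few pools cancel within a group, so these values cannot exclude a pairing. With the pool number as a replicate block over all arrays, 2, 11, 11, 0, 12, 11 and 13 probe sets were called in the 7 comparisons, in the order of the preceding sentences, and 7 for the difference of differences. A fit of only the 2 groups with the replicate block, added after seeing the data, called 0 for knockout-labelled against wild-type and 0 for VENUS-negative against VENUS-positive MDPs, with few residual degrees of freedom.

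The 12 sign changes were all of uncalled values and came from leaving out a pool, over which these values ranged as follows. For knockout-labelled minus wild-type MDPs, Csf3r ran from -0.11 to 0.35, Flt3 from -0.30 to 0.20, Csf2rb by 1455660_PM_at from -0.084 to 0.14 and Il6st by 1460295_PM_s_at from -0.00012 to 0.32. For VENUS-positive minus wild-type MDPs, Met by 1422990_PM_at ran from -0.78 to 0.087, Csf2rb by 1450200_PM_s_at from -0.030 to 0.18 and Il6st by 1460295_PM_s_at from -0.23 to 0.074. Csf2rb by 1455660_PM_at ran from -1.25 to 0.022 for VENUS-negative minus VENUS-positive MDPs, and Ifngr1 from -0.49 to 0.056 for the difference of differences.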
